A study of Mus musculus with 9 samples.

Results

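The microRNA rows are the rows of the authors' deposited full table whose gene name holds a symbol that starts with Mir and a digit or with Mirlet. Of 630 such rows, 2 that also hold Meg3 or Mirg were left out, which leaves 628 of the 27198 rows. Of these, 557 hold microRNA symbols alone, 3 of them with the symbol of a dedicated host gene (Mir22hg, Mir17hg or Mir143hg). The other 71 join a microRNA with a further gene, so that hairpin and host share 1 value. The rows hold 621 distinct microRNA symbols.

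PolyA RNA was sequenced from posterior second heart field (pSHF), mesoderm behind the heart tube that feeds the atria and the atrial septum, dissected from mouse embryos at E10.5 on a mixed strain background. The groups were Shh KO, with 5 libraries, and Shh WT, with 4 libraries, where Shh encodes the secreted ligand Sonic hedgehog. The labels give neither the allele nor the tissue in which Shh was lost, nor whether libraries came from separate embryos or litters. All values are the authors' comparisons of pooled libraries, with no value per library, so no spread between replicates can be given. Depth is unknown.

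A microRNA is cut from a longer primary transcript. The Drosha and Dgcr8 enzyme complex frees a hairpin, Dicer1 trims it, and an Argonaute protein loads a single short strand and finds messages that match the seed of that strand. Many hairpins lie in introns or exons of other genes, their host genes. PolyA RNA-seq reads the primary and host transcripts and does not capture the mature strand, so the values below are levels of precursor or host RNA. An FPKM value counts fragments per transcript length and library size, and a fold change is the log2 of Shh KO over Shh WT. In dissected tissue, fewer cells of a type and less RNA per cell cannot be told apart.

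Mature strands from 3 of the called rows are printed first, since these rows differed between the genotypes. The rows of miR-3572, miR-5132 and miR-718 are shared with Cnot3 or Irak1, so a difference in the precursors of these strands is not shown. Sequences are from RefSeq (GRCm38.p6), 5′ to 3′, and capitals mark the seed, bases 2 to 8.
miR-22-5p: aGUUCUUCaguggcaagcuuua
miR-22-3p: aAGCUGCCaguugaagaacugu
miR-3572-5p: uGGGGAACagggcaagguggac
miR-3572-3p: uACACUUGuccuucuuuccccag
miR-5132-5p: gCGUGGGGugguggacucagg
miR-5132-3p: cUGAUGUUccccaucccgcag
miR-718: cUUCCGCCcggccgggugucg
These strands share no seed with one another. The Mir22 hairpin (chr11:75463716-75463810, plus strand, mm10) is shown whole because its row had the largest fall, and here capitals mark both mature arms.
Mir22 hairpin: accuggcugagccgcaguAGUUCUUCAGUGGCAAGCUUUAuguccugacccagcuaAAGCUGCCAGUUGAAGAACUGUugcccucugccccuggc

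Few microRNA rows could be compared at all. Cuffdiff tested 113 of the 628 (18%), against 12952 of 22649 other named rows (57.2%) in the authors' deposited table. Rows of microRNA symbols alone were tested in 49 of 557 cases (8.8%), against 64 of 71 shared rows (90.1%). Where the row was no longer than the hairpin itself, 4 of 204 were tested (1.96%). Among rows placed on the genome, a hairpin in an exon of a gene on the same strand was in a tested row in 68 of 125 cases (54.4%), and a hairpin in an intron in 18 of 228 (7.89%). Of hairpins outside genes, 9 of 147 were tested (6.12%). The split by position overlaps that by class, since shared rows such as Cnot3,Mir3572 count among those with an exonic hairpin. Of the 515 untested rows, 443 list a fold change of 0, which says only that no value was made there.

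**Figure D1:**
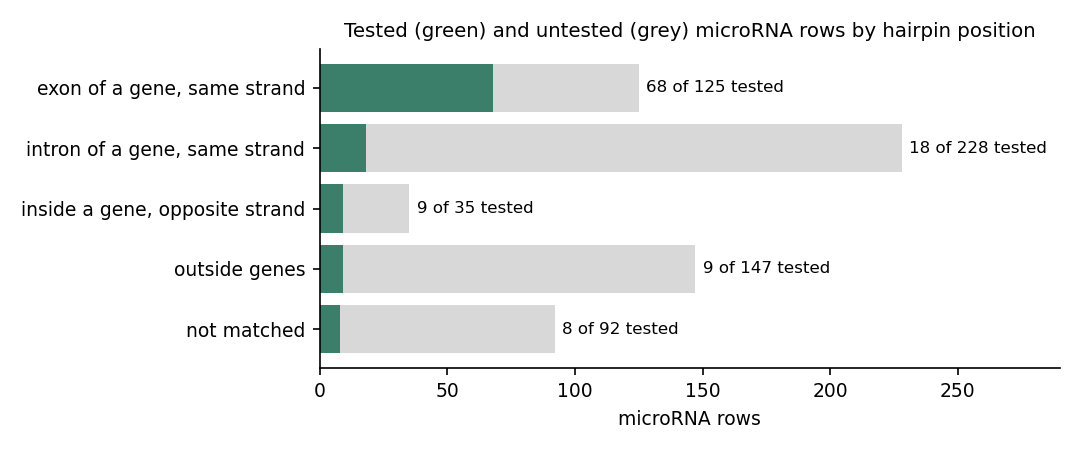
Number of microRNA rows, tested (green) or untested (grey) by Cuffdiff, by where the hairpin lies relative to annotated genes; rows not matched to a hairpin position are at the bottom. Of rows with a hairpin in a same-strand exon 68 of 125 were tested, against 18 of 228 for introns.

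Of the 113 tested rows, Cuffdiff called 4 at a q under 0.05 (3.54%), 2 higher and 2 lower in Shh KO than in Shh WT. Over all 16944 tested rows of the authors' deposited table the share called was 1.58%, with 1.23% higher and 0.313% lower. Over tested rows with a gene name it was 1.94%, with 1.55% higher and 0.383% lower. Whether the share among microRNA rows differs from that background was not tested. At a q under 0.01 the same 4 were called (1.02% of all tested rows), and at a q under 0.10 there were 5 (2.24% of all tested rows). At an unadjusted p under 0.05 there were 9 of 113 (7.96%), against 6.68% of all tested rows. All 4 called rows sit at the smallest q of the table, 0.00554, which 153 rows share, so that q does not rank them.

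Mir22,Mir22hg fell most. This row covers chromosome 11, 75461539 to 75466690 (mm10), and stood at 1.74 FPKM in Shh KO and 16.2 FPKM in Shh WT in the authors' deposited table. The Shh KO value is 10.7% of the Shh WT value, a log2 fold change of −3.22 (Cuffdiff q = 0.00554). Mir22hg is the noncoding host of miR-22, a microRNA abundant in heart and muscle and studied in mice for its part in cardiac hypertrophy. The hairpin lies in an exon in 2 of 2 annotated Mir22hg transcripts, so the reads of the row cover the transcript that is cut to make it. Among 50 named rows called lower in the authors' deposited table, this fall ranked 2, and with 1 FPKM added to both values it was −2.65. Neighbouring genes were not called. Tlcd2, of which 1 of 4 annotated transcripts also runs through the hairpin, had 0.32 (log2) in the authors' deposited table. Wdr81 stood at −0.04 and Prpf8, a core splicing factor, at −0.24 there.

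Irak1,Mir5132,Mir718 and Cnot3,Mir3572 rose. Irak1, a kinase that relays signals of interleukin-1 and Toll-like receptors, lies on chromosome X in a row at 74013914 to 74023936. Its row had 61.2 FPKM in Shh KO and 20.6 FPKM in Shh WT in the authors' deposited table, 2.97-fold higher (log2 1.57, Cuffdiff q = 0.00554). Mir5132 (74023528 to 74023598, minus strand) overlaps coding sequence in 7 of 22 annotated Irak1 transcripts and noncoding exons in 5. Mir718 (74023849 to 74023936, minus strand) overlaps in part the UTR of 5 of the 22 and reaches upstream of their start. Reads of a hairpin and its host in a shared row cannot be told apart. Cnot3 encodes a subunit of the CCR4-NOT complex, which removes polyA tails and is recruited by the microRNA silencing complex. Its row on chromosome 7 (3645269 to 3677553) had 87.3 FPKM in Shh KO and 40.6 FPKM in Shh WT in the authors' deposited table, 2.15-fold higher (log2 1.11, Cuffdiff q = 0.00554). Mir3572 (3655962 to 3656047, plus strand) overlaps coding sequence in 1, UTR in 1 and a noncoding exon in 1 of 8 annotated Cnot3 transcripts. The row overlaps that of Leng1 and Tmc4, which was at −0.03 in the authors' deposited table. Markers of other cells moved in the same libraries, with 8 of 8 tested cardiomyocyte, 7 of 7 hepatoblast and 4 of 6 macrophage rows called higher and values from 0.78 to 2.95, 1.39 to 2.46 and 1.01 to 2.18 (log2) in the authors' deposited table. Their part in the 4 called rows was not tested.

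**Figure D2:**
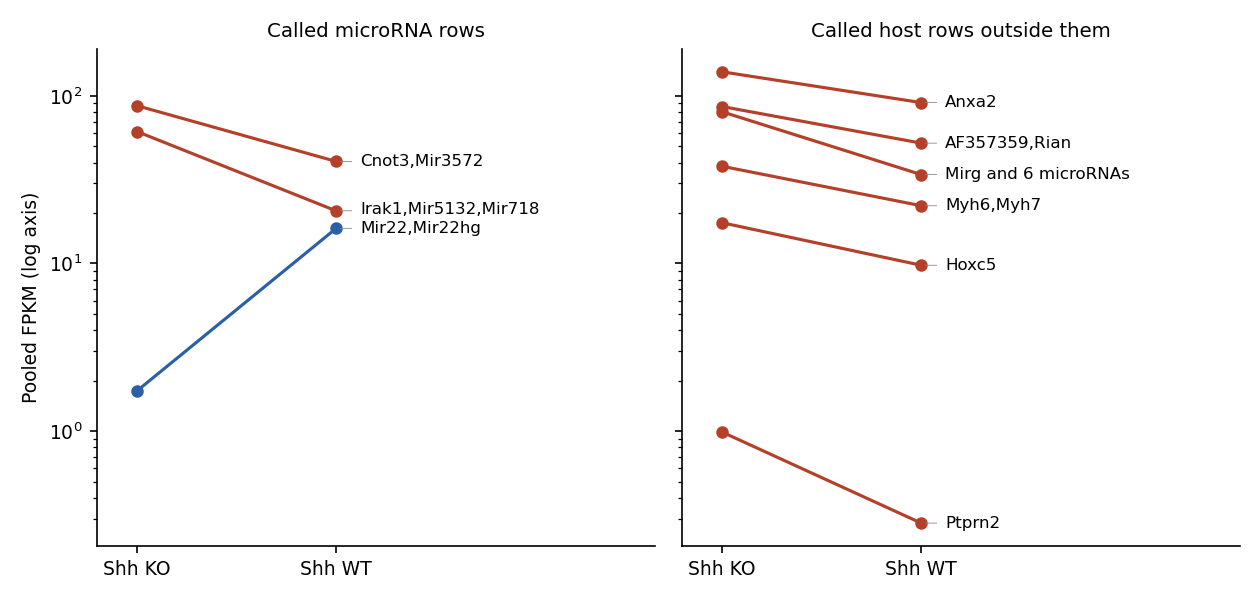
Pooled FPKM (log axis) in Shh KO (left point of each line) and Shh WT (right point) of 3 called microRNA rows and of 6 called host gene rows outside them; the blue line is lower and red lines are higher in Shh KO. Each point is the authors' single value per genotype, without an error. Mir22,Mir22hg stands at 1.74 against 16.2 FPKM.

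Below these 4, the row nearest the threshold was Mir3076,Tkt, which the authors' deposited table gives at 0.58 (log2, Cuffdiff q = 0.0599). Tkt is transketolase of the pentose phosphate pathway, and the hairpin overlaps its coding sequence in 2 of 9 annotated transcripts. The row 2900076A07Rik,Mir1839 had −1.31 in the authors' deposited table (Cuffdiff q = 0.234). Mir434, antisense to the imprinted gene Rtl1, had 2.89 (Cuffdiff q = 0.512) there. Mir9-2, among the genomic copies that give the neural microRNA miR-9, had 2.65 (Cuffdiff q = 0.597) in the authors' deposited table. Egfl7,Mir126, a gene pair of endothelial cells, had 0.39 in the authors' deposited table (Cuffdiff q = 0.713). Mirlet7i was tested at an unadjusted p of 0.0575 (Cuffdiff q = 0.788), but a spreadsheet error stands in place of its fold change, so its direction is unknown. The same holds for 9 tested microRNA rows in all. C430049B03Rik,Mir322,Mir351,Mir503, the transcript of a cluster on the X chromosome, had 0.61 in the authors' deposited table (Cuffdiff q = 0.822).

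Large fold changes without a call were frequent among the microRNA rows. Of 104 tested rows with a numeric fold change, 27 (26%) differed at least 2-fold in either direction in the authors' deposited table, and 4 of these were called. Among other named tested rows, 527 of 12944 (4.07%) differed as much and 203 of them were called. The median size of the log2 fold change was 0.29 for microRNA rows and 0.15 for the other named rows. Directions were mixed, with 50 positive and 54 negative values and a median of −0.03 (quartiles −0.29 and 0.29), beside a median of 0.02 over all tested rows (quartiles −0.14 and 0.20). Rows of microRNA symbols alone had a median of −0.06 (n = 40 rows) and shared rows −0.01 (n = 64 rows). No value per library was used here, so the precision of these fold changes is not known beyond Cuffdiff's p.

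AA467197,Mir147 shows this best. Its log2 fold change of 6.10 was the highest of all 16918 tested numeric rows in the authors' deposited table, but its unadjusted p was 0.286 and its Cuffdiff q 1.00. Mir219-2 (2.70), whose miR-219 acts in oligodendrocyte maturation, was among the 5 highest tested microRNA rows in the authors' deposited table, without a call. So was Dio3os,Mir1247 (1.80), from the noncoding transcript beside the deiodinase gene Dio3. At the low end of the tested microRNA rows stood Hipk3,Mir1902 (−2.33), Mir717 (−2.27) and A330023F24Rik,Mir29b-2,Mir29c (−2.21) in the authors' deposited table. The last is the primary transcript of miR-29b and miR-29c, microRNAs known to target collagen messages, and had an unadjusted p of 0.188.

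**Figure D3:**
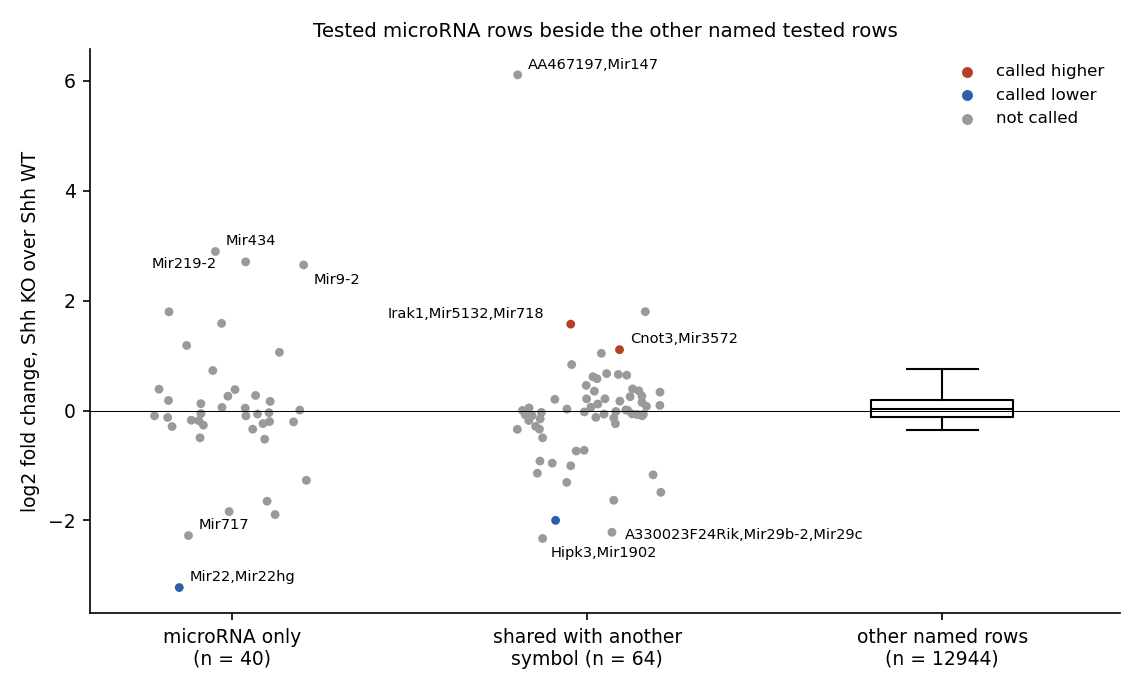
Log2 fold change (Shh KO over Shh WT) of tested microRNA rows, each point a row, for rows of microRNA symbols alone (n = 40) and rows shared with another symbol (n = 64), beside a box (median, quartiles, whiskers at percentiles 5 and 95) of 12944 other named tested rows. Colours mark rows called higher or lower; of 27 microRNA rows that differ at least 2-fold, 4 are called.

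Named groups of microRNAs were described by lists from textbook knowledge, chosen with earlier results of these data known. None of the 11 rows on the muscle list, which does not hold Mir22, was tested. Among them are those of Mir133a, Mir206, Mir208 and Mir499, which act in cardiac and skeletal muscle. The 9 epithelial rows, which include the Mir200 family, and the 4 liver rows were also untested. The smooth muscle list had 1 tested row, Mir143hg, host of miR-143 and miR-145, at −0.06 in the authors' deposited table. Of 12 let-7 rows 2 were tested, Mirlet7d (−0.18 in the authors' deposited table) and Mirlet7i. Of 13 rows of the miR-17-92 cluster and its paralogs 2 were tested, Mir17hg,Mir19b-1,Mir20a (−0.24) and Mir25 (0.01) in the authors' deposited table. The 3 tested neural rows of 19 were Mir9-2 (2.65), A930011O12Rik,Mir124a-1,Mir3078 (0.84) and Mir7-1 (0.27) in the authors' deposited table, and 0 were called by Cuffdiff, with 1 at an unadjusted p under 0.05. Of 6 Hox cluster rows 1 was tested, Hoxb3,Hoxb4,Mir10a, at 0.08 in the authors' deposited table. The mesenchymal list gave 3 tested rows of 10, with Mir22,Mir22hg, the row described above, called lower. Since miR-22 is abundant in heart and muscle too, this is not a result about mesenchymal microRNAs. The other tested rows of that list were Mir21,Vmp1 at 0.15 and the Mir322 row at 0.61 in the authors' deposited table. Of 8 blood and endothelial rows 1 was tested (Egfl7,Mir126), of 6 stress and hypoxia rows 2 (Mir21,Vmp1 at 0.15 and Mir24-2 at 0.17), and of 2 embryonic stem cell rows 0, in the authors' deposited table.

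Tested rows whose mature strands share a seed can be set side by side, because such strands are read as acting on overlapping messages. Mature sequences were found for 100 of the 113 tested rows, 171 strands with 164 distinct seeds. Only 5 seeds occurred in more than 1 row, and the strands of 4 of them are shown with the seed in capitals.
miR-15a-5p: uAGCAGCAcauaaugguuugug
miR-16-5p: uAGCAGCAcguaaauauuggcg
miR-322-5p: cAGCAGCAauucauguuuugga
miR-125a-5p: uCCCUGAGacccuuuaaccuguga
miR-351-5p: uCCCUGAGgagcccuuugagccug
miR-130b-3p: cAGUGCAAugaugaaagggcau
miR-301a-3p: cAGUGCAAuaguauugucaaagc
let-7d-5p: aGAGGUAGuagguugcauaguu
let-7i-5p: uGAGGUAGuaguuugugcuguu
On the log2 scale, Dleu2,Mir15a,Mir16-1 had 0.01 and the Mir322 row 0.61 in the authors' deposited table. Mir125a,Ncrna00085, whose strand shares its seed with miR-351 of the Mir322 row, had −0.03 there. The row of Mir130b had 0.12 and Mir301 had −0.04 in the authors' deposited table. None of these rows was called.

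Host genes with a row of their own were read for 149 microRNA rows, which lie inside 129 distinct tested host rows. Cuffdiff called 6 of the 129 (4.65%), all 6 higher in Shh KO. The 6 include the Mirg row, which was left out of the microRNA rows, and AF357359,Rian of the same imprinted domain. The share therefore rests in part on that domain. The share called was 1.58% over all tested rows and 1.94% over tested rows with a gene name. The median log2 fold change of the 129 was −0.02, with 62 positive and 67 negative values, so host rows as a group were centred near that of all tested rows.

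Myh6,Myh7 hosts Mir208a and Mir208b, both intronic on the minus strand of chromosome 14. These genes encode the alpha and beta heavy chains of cardiac myosin, and their microRNAs regulate myosin isoforms in the mouse heart. The row had 38.0 FPKM in Shh KO and 22.1 FPKM in Shh WT in the authors' deposited table (log2 0.78, Cuffdiff q = 0.0176). The host row was higher while both hairpin rows were untested and list 0. Cardiomyocyte markers were higher as well. All 8 tested rows of that list, which counts the Myh6,Myh7 row itself, were called higher, with a median of 1.26 (log2). The other rows of the list ran from 0.99 (Actc1) to 2.95 (Nppa) in the authors' deposited table. Their part in the host value was not tested. The seeds of the Mir208 strands are the same in both genes.
miR-208a-3p: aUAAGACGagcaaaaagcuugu
miR-208b-3p: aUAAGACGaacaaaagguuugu

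Ptprn2, a receptor phosphatase of secretory granules in neurons and endocrine cells and host of Mir153, had 0.988 FPKM in Shh KO and 0.283 FPKM in Shh WT in the authors' deposited table (log2 1.80, Cuffdiff q = 0.00554). Of 6 tested neuronal markers, 3 were called higher in the authors' deposited table, with values from −0.82 to 1.16 on the log2 scale, and their part in the Ptprn2 value was not tested. Hoxc5, a homeobox gene whose intron holds Mir615, had 17.5 FPKM in Shh KO and 9.76 FPKM in Shh WT in the authors' deposited table (log2 0.84, Cuffdiff q = 0.0137). Anxa2, a calcium-dependent membrane-binding protein and host of Mir3109, had 139 FPKM in Shh KO and 91.1 FPKM in Shh WT in the authors' deposited table (log2 0.61, Cuffdiff q = 0.0437).

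The other called host rows are noncoding transcripts of the imprinted Dlk1 to Dio3 domain. Mirg, which carries a long array of microRNAs, shares a row with 6 microRNA symbols that had 80.3 FPKM in Shh KO and 33.9 FPKM in Shh WT in the authors' deposited table (log2 1.25, Cuffdiff q = 0.00554). AF357359,Rian, which holds Mir341, Mir1188 and Mir370 in introns, had 86.3 FPKM in Shh KO and 52.2 FPKM in Shh WT in the authors' deposited table (log2 0.73, Cuffdiff q = 0.00985). Of the 5 microRNA rows inside Mirg and the 3 inside Rian, 1 was tested, Mir1188, which was not called and stood at 1.58 (log2) in the authors' deposited table.

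Host rows not called include several of known developmental genes. Slit3 (−0.44) and Slit2 (−0.28), guidance ligands that hold the Mir218 copies, had unadjusted p of 0.0438 and 0.181 in the authors' deposited table. Smc4, a condensin subunit and host of Mir15b, had −0.50 in the authors' deposited table (unadjusted Cuffdiff p 0.01955). Ank1, an erythrocyte membrane anchor and host of Mir486, also had −0.50 (unadjusted Cuffdiff p 0.0242). Arrb1, host of Mir326, had −0.51 and Trps1, host of Mir1907, −0.52 (unadjusted Cuffdiff p 0.0075 and 0.02015). Pde2a, host of Mir139, went the other way, at 0.44 (unadjusted Cuffdiff p 0.0482) in the authors' deposited table. Igf2, a growth factor gene and host of Mir483, had 0.19 and Mest, host of Mir335, 0.14 there. Over a list of 53 textbook host rows, 48 were tested and Cuffdiff called 2 higher and 0 lower (4.17%). The share was 1.58% over all tested rows and 1.94% over tested rows with a gene name. The called rows are Myh6,Myh7 and the row of Mirg, both counted among the called host rows above, so this is no separate result.

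In 21 cases both the microRNA row and its host row were tested. Of the 21 microRNA rows 0 were called by Cuffdiff, at unadjusted p of 0.146 or higher. The share called over all tested rows was 1.58%, so 0 of 21 is no result about these pairs. In 19 pairs with both numbers, the microRNA row was at least 1 log2 unit from its host row in 8, and the signs were the same in 8. The host row stood within 0.3 of 0 in 17 of the 19, while microRNA rows ran from −2.27 to 1.79. Rb1, host of Mir687 (−0.50), has tested rows at 1.20 and 0.15 (log2) on the same span, and the row at 1.20 was used. With the row at 0.15, the counts of pairs 1 unit apart and of host rows near 0 would differ. Mir717 had −2.27 and its host Gpc3, a glypican that binds growth factors, 0.24 in the authors' deposited table. Mir186 had −1.89 with Zranb2 at −0.13, and Mir677 had 1.79 with Atp5b, a subunit of ATP synthase, at 0.04 there. The span listed for these rows is wider than the hairpin and overlaps the host. Each microRNA row and its host row have separate values, but how reads were assigned between them is not given.

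**Figure D4:**
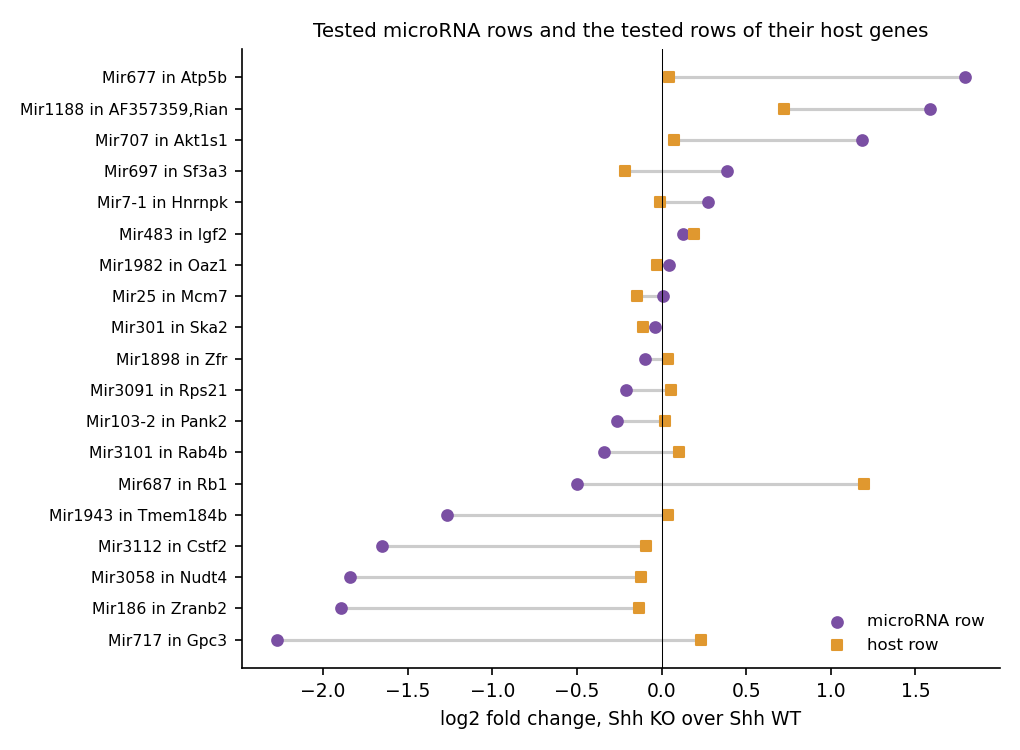
Log2 fold change (Shh KO over Shh WT) of 19 tested microRNA rows (circles) and of the tested row of the host gene around each (squares), joined by a line. Host rows stand within 0.3 of 0 in 17 of 19 pairs, while microRNA rows run from −2.27 to 1.79. For Mir687 the Rb1 row at 1.20 is drawn, not the Rb1 row at 0.15. Of the 19 microRNA rows 0 are called, against 1.58% of all tested rows.

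Genes that make and use microRNAs were read from lists of processing and silencing genes. Cnot3 was on neither list, although Cnot1 and Cnot7 of the same CCR4-NOT complex were on the silencing list. Its row, called higher as given above, is therefore left out of the counts here, which hold for the listed genes only. Of 37 tested rows of 39, Cuffdiff called 0, against 1.58% of all tested rows, and 3 had an unadjusted p under 0.05, against 6.68%. Values were below 0 in 32 of 37 rows, against 7903 of 16918 over all tested rows, with a median log2 fold change of −0.12, beside 0.02 for all tested rows of the authors' deposited table. Lin28a, an RNA-binding protein that blocks maturation of let-7 precursors, came nearest, at −0.74 in the authors' deposited table (unadjusted p 0.0008, Cuffdiff q = 0.0502). Its paralog Lin28b had −0.57 (Cuffdiff q = 0.174) and Trim71, a ubiquitin ligase whose message is a let-7 target, −0.40 (Cuffdiff q = 0.695) in the authors' deposited table. The tested let-7 rows were not called either, and polyA reads say nothing of the mature let-7 strands.

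The core enzymes were not called. Drosha had −0.23, Dicer1 −0.11 and Xpo5, which exports the hairpins from the nucleus, −0.16 in the authors' deposited table. Eif2c2, the Argonaute that cleaves its targets, had −0.33 and Cnot1, the scaffold of CCR4-NOT, −0.43 there. Of the listed rows, 3 are microRNA rows as well, Dgcr8,Mir1306 at −1.17, Ddx5,Mir3064 at −0.72 and Mir5113,Tnrc6b at 0.64 in the authors' deposited table, and none of them was called. Mov10, a helicase that binds Argonaute, followed Mir5113,Tnrc6b among the values above 0, at 0.17 in the authors' deposited table.

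**Figure D5:**
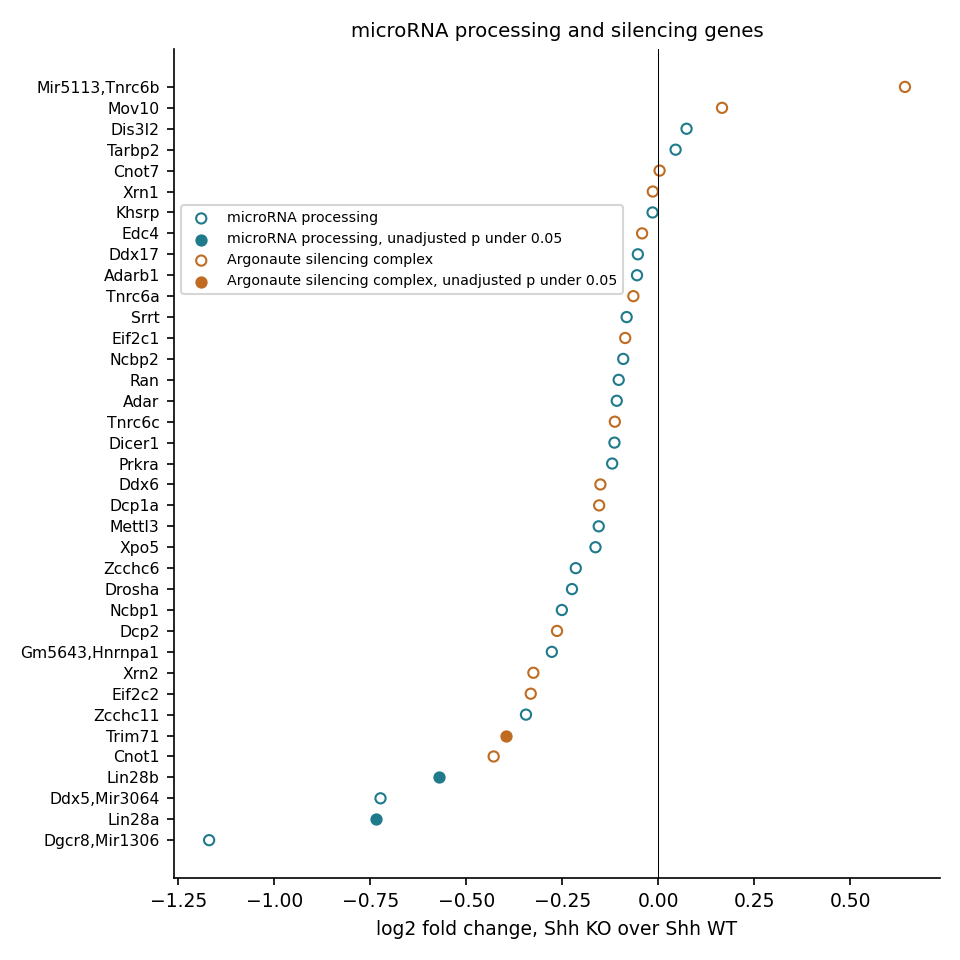
Log2 fold change (Shh KO over Shh WT) of 37 tested rows of microRNA processing genes (blue-green) and silencing genes (orange), ordered by value; filled points have an unadjusted p under 0.05, and 0 rows are called. Values are below 0 in 32 rows, with Lin28a at −0.74.

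The labelled genotype and tissue were checked on other genes of the authors' deposited table. Shh had 5.44 FPKM in Shh KO and 15.7 FPKM in Shh WT, and the other 5 genes of the Hedgehog list (Ptch1, Gli1, Hhip, Foxf1 and Foxf2) were called lower by Cuffdiff. The pSHF genes Osr1 (33.5 FPKM in Shh KO, 71.4 FPKM in Shh WT) and Foxf1 (42.5 FPKM in Shh KO, 83.5 FPKM in Shh WT) were present in both groups in the authors' deposited table. Both were called lower in Shh KO, Osr1 at −1.09 (log2, Cuffdiff q = 0.00554). Isl1 (−0.39) and Tbx5 (−0.44), transcription factors of cardiac progenitors, were tested and not called in the authors' deposited table.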

How the data were processed

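PolyA RNA-seq libraries of 5 Shh KO and 4 Shh WT samples were aligned with TopHat2 2.0.10 and compared with Cuffdiff 2.1.1, per the submitters' processing notes. For strand and scaling, Cuffdiff's options are not given in the sources used here. Although the labels call the reads stranded, without that setting a gene and its antisense partner cannot be told apart. The authors' full table holds log2 fold changes, test statistics (a score), p-values and q-values. The authors' shorter table holds 1 pooled FPKM value per genotype, the log2 value of their ratio, p-values and q-values for called genes. FPKM, the ratio of Shh KO to Shh WT, log2 values, scores, p-values and q-values are used as deposited by the authors. Depth per library is unknown.

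A row with p under 1 counts as tested (16944 rows), and the deposited q-value equals a Benjamini-Hochberg value over these within 0.0001. A row was called at a Cuffdiff q under 0.05. The sign of the statistic is opposite to that of the fold change in all 16918 tested rows with both, and the fold change gave the direction. The submitters' notes name mm9, but after adding 1 to the deposited starts 188 of 188 hairpin-sized rows begin at a GRCm38 RefSeq start, so positions are mm10. Of 645 microRNA entries 551 were placed, 470 by RefSeq and 81 by GENCODE, and hosts were read from GENCODE transcripts.

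The members and lists were chosen with earlier results of these data known. Of the called microRNA rows, 1 is not reported here. The text names the other called microRNA rows, the 10 of smallest p, the 5 highest and 5 lowest fold changes, tested rows on microRNA lists, overlapping or host rows of these, and called or most changed processing and silencing genes. The other host rows, pairs and neighbours named were chosen after their values were seen. Scripts ran in Python 3.11.15 with pandas 2.3.3, numpy 2.4.6 and matplotlib 3.10.9, and were tested on simulated data. Since no label ties libraries to separate embryos, the p-values cover the spread of these libraries alone, which may be technical.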

Additional observations from a re-analysis of the deposited data

How the results depend on the processing

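The 4 microRNA rows remained at a Cuffdiff q under 0.01. With q under 0.10, or p-values adjusted over named rows only, 5 were called, Tkt's row being added. With Benjamini-Yekutieli adjustment 0 were called, since its smallest value over all tested rows is 0.0571. Without rows shared with another symbol 1 row was called, and without rows that overlap another named row 3. Of the listed processing and silencing genes, 1 was called at a q under 0.10, Lin28a. At a q under 0.01, chosen after seeing the data, 3 of the host rows were called. With 1 or 0.1 FPKM added to both values, each called row kept its direction, Mir22,Mir22hg at −2.65 and −3.15. The median of microRNA rows stayed between −0.06 and −0.01 in the other subsets. No paired analysis was possible because the deposited tables hold 1 value per genotype and no library values, so leaving out a library was not run either. Depth limits low rows, and its size is unknown here.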

Other observations

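MicroRNA rows of the imprinted Dlk1 to Dio3 domain on chromosome 12 (109452485 to 110281097, mm10), chosen after their values were seen, were mostly untested, with 6 of 47 tested and 0 called by Cuffdiff. The 5 numeric values of tested rows, from 0.38 for Mir136 to 2.89 for Mir434 on the log2 scale, were above 0 in the authors' deposited table. Untested rows of the domain with a number went both ways there, with Mir1193 at 0.67, Mir679 at −0.40, Mir654 at −0.47 and Mir453 at −0.62. The protein-coding and noncoding genes of the domain had values above 0 as well. Dlk1, a membrane protein of progenitor cells at the start of the domain, had 154 FPKM in Shh KO and 64.7 FPKM in Shh WT in the authors' deposited table (log2 1.25, Cuffdiff q = 0.00554). The Meg3 row had 0.82 (Cuffdiff q = 0.118) and Dio3, which inactivates thyroid hormone, 1.34 (Cuffdiff q = 0.123) in the authors' deposited table. Mir434, Mir136 and Mir127 with Mir431 lie in rows of the same span as Rtl1, so these values cannot be taken as independent of one another.

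Of the untested microRNA rows, 16 list a number other than 0 without a test, 7 above 0 and 9 below. The highest was F630028O10Rik,Mir223, the myeloid microRNA transcript, at 2.08, with Mir378b at 1.23 and Mir196a-1 at 1.20 in the authors' deposited table. The lowest were Mir3068 at −0.99 and Mir130a at −0.90 there. A locus on chromosome 2 (10370451 to 10595253) gives 16 microRNA rows of 1 shared span, 0 of them tested.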
